A study of Mus musculus with 12 samples.

Results

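The cells described here are 510 cells of expression cluster 2, the cluster of regulatory T cells, whose T cell receptor clone was also found in cluster 1 or 7, the clusters of conventional CD4 T cells, of the same tumour. They were chosen from a table of 30749 cells, of which 4598 lay in cluster 2 and 2993 of those had exactly 1 T cell receptor beta (TRB) chain. A clone was defined as equal TRB V gene and equal nucleotides of the third complementarity-determining region (CDR3) within 1 library. The 2993 cells fell into 1216 clones, 170 of which reached cluster 1 or 7 and held the 510 shared cells, and the other 2483 cells are called unshared. The split used the receptors and the cluster numbers of the clone mates, and the clusters themselves were made from gene expression, so differences between cluster 2 and the other clusters are given as description only.

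The study asked how neutralising acyl-CoA binding protein (ACBP, also called diazepam binding inhibitor and encoded by Dbi) changes tumour T cells under chemotherapy and immunotherapy. C57Bl/6 mice carried MCA205 tumours, a transplantable mouse fibrosarcoma, grown from 300000 injected cells. All mice received oxaliplatin at 10 mg/kg 8 days after injection and 200 µg of anti-PD1 antibody 8 days after that. An antibody at 2.5 mg/kg, either isotype control IgG2a or anti-ACBP, was given every 2 days from 2 days before oxaliplatin until 1 day before anti-PD1. Tumours were taken 2 days after anti-PD1, and the sorted CD4 and CD8 fractions were pooled 1 to 1 before loading 10000 cells, so shares across the 2 lineages were set by the mixing. Each group has 3 libraries with a paired receptor library, called isotype 1 to 3 and anti-ACBP 1 to 3, and the library is the replicate in every test. The labels describe the libraries as separate samples of mice but do not tie each to a named animal, so p-values measure the spread between these libraries.

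Regulatory T cells are CD4 T cells that restrain immune responses and depend on the transcription factor Foxp3. Some acquire Foxp3 in the thymus and others arise outside it from conventional CD4 cells, and Helios (Ikzf2) is more often found in the first kind. The TRB CDR3 is built by random joining of gene segments with untemplated bases at the junctions, so cells with identical CDR3 nucleotides usually descend from 1 ancestor T cell. A clone found in both compartments therefore links a cell in the regulatory cluster with cells that look conventional.

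The CDR3 sequences below are those of 7 shared clones. They are the 3 with the most cluster 2 cells over all libraries and the shared clone with the most cluster 2 cells in each library. They range from clones lying almost wholly in cluster 2 to clones lying mostly in clusters 1 and 7. Of all 170 shared clones, 129 had only 1 cell in cluster 2, and none of these is shown. Each runs 5′ to 3′ as deposited in the receptor tables, and capitals mark the junction, the stretch between the bases shared with other receptors of the same V gene and those shared with other receptors of the same J gene.
Clone 1 (isotype 1, TRBV5 and TRBJ2-3): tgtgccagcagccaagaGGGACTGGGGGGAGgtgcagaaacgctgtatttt
Clone 2 (isotype 3, TRBV12-2+TRBV13-2 and TRBJ2-3): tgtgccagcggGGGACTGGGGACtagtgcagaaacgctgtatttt
Clone 3 (isotype 1, TRBV29 and TRBJ2-7): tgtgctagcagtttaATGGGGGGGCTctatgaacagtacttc
Clone 7 (isotype 2, TRBV12-1 and TRBJ1-4): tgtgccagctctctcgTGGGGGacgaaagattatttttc
Clone 10 (anti-ACBP 1, TRBV1 and TRBJ2-4): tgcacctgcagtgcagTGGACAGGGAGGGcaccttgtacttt
Clone 14 (anti-ACBP 2, TRBV3 and TRBJ2-5): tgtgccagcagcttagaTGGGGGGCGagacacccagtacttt
Clone 11 (anti-ACBP 3, TRBV10 and TRBJ1-6): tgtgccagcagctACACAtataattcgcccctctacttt

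Clone 1 had the most cluster 2 cells of the shared clones, with 113 cells there and 1 mate in clusters 1 and 7. Clones 2 and 3 had 42 and 40 cells in cluster 2 against 1 and 3 mates. In these 3 clones 104 of 113, 34 of 42 and 35 of 40 cluster 2 cells carried a Foxp3 UMI (a unique molecular identifier, 1 captured transcript). Clone 7 had 13 cells in cluster 2 and 30 mates, and 8 of the 13 carried Foxp3. Clones 10, 14 and 11 had 5, 3 and 4 cells in cluster 2 and 10, 17 and 49 mates, and none of their cluster 2 cells carried a Foxp3 UMI. The junctions ran from 5 bases in clone 11 to 14 bases in clone 1, and none of the 7 clones was found in a second library.

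The second receptor chain was read to check that shared TRB sequences mark shared clones. Of 417 shared cells with 1 alpha chain (TRA) and mates with a TRA to compare, 413 carried a TRA found in at least 1 mate. This is 99.0% (95% exact binomial interval 97.6 to 99.7%). Of 1970 unshared cells, 22 (1.12%) had a TRA equal to any TRA in clusters 1 and 7 of the library. Intervals here and below cover counting error only and treat cells as independent. Cells of 1 clone are not, and clone 1 alone gave 113 cells compared with 1 mate. The intervals are therefore narrower than intervals over clones would be.

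Foxp3 was detected less widely in the shared cells than the cluster's name implies. It was found in 290 of 510 shared cells (56.9%) and in 2110 of 2483 unshared cells (85.0%), although the shared cells were sequenced more deeply, with a median of 7209 against 5504 UMIs per cell. By library the shared cells were positive in 72.4, 34.3 and 71.1% of isotype 1 to 3 and in 3.77, 48.1 and 30.4% of anti-ACBP 1 to 3, while the unshared cells held between 80.8 and 88.3%. The shared share was lower in all 6 libraries and spread far more widely, and in anti-ACBP 1 only 2 of 53 cells had a Foxp3 UMI. CD8 cells of clusters 0, 3 and 6, which should lack Foxp3, gave 99 of 10878 cells (0.910%, median 6364 UMIs), and the clone mates in clusters 1 and 7 gave 23 of 1669 (1.38%, median 5254 UMIs). After each cell was thinned to 2000 UMIs, leaving out 2 shared, 64 unshared and 126 CD8 cells below that depth, the shares were 34.6% of shared, 64.8% of unshared and 0.420% of CD8 cells. The regulatory label thus holds for only some of the shared cells, and they are called shared cluster 2 cells below.

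**Figure D1:**
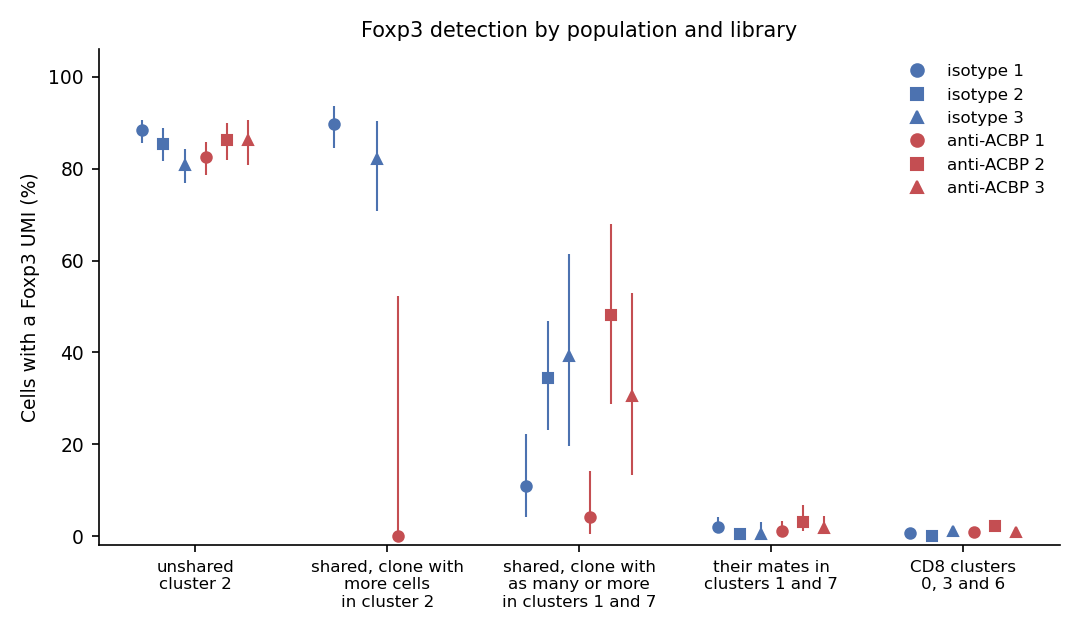
Percent of cells with a Foxp3 UMI (vertical axis) in each library (1 point each, bars show the 95% exact binomial interval) for unshared cells, shared cells split by where most of the clone lay, the mates of all shared clones in clusters 1 and 7, and the CD8 clusters. Unshared cells lay between 80.8 and 88.3%, cells of shared clones with as many or more cells in clusters 1 and 7 between 4.17 and 48.1%, and the anti-ACBP 1 point among clones with more cells in cluster 2 rests on 5 cells.

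The 170 shared clones fell into unequal kinds by where their cells lay, a division made after the data were seen and therefore given without a test. In 11 clones cluster 2 held more cells than clusters 1 and 7, and these clones held 267 of the 510 shared cells. Foxp3 was found in 230 of the 267 (86.1%), and they had only 16 mates in all, with 7 of the 11 clones resting on a single mate. The 267 cells came from 3 libraries, with 195 from isotype 1, 67 from isotype 3 and 5 from anti-ACBP 1. In the other 159 clones clusters 1 and 7 held as many or more cells, with 243 cells in cluster 2 against 1653 mates and up to 88 mates in 1 clone. Foxp3 was found in 60 of these 243 (24.7%), and 109 of the 159 clones had no Foxp3-positive cell in cluster 2.

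The contrast between the clone kinds was also seen within clones of some size. Among clones with at least 3 cells in cluster 2, the 10 lying mostly in cluster 2 had a median of 84.2% Foxp3-positive cells, and 2 of them had none. The 17 lying mostly in clusters 1 and 7 had a median of 0%, 11 of them had none, and the highest reached 66.7%. Clone 6 of isotype 1 (TRBV19), with 17 cells in cluster 2 and 82 mates, had no Foxp3 UMI in any of the 17. Clone 4 of the same library (TRBV20), with 33 cells and 1 mate, had 31 positive cells.

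**Figure D2:**
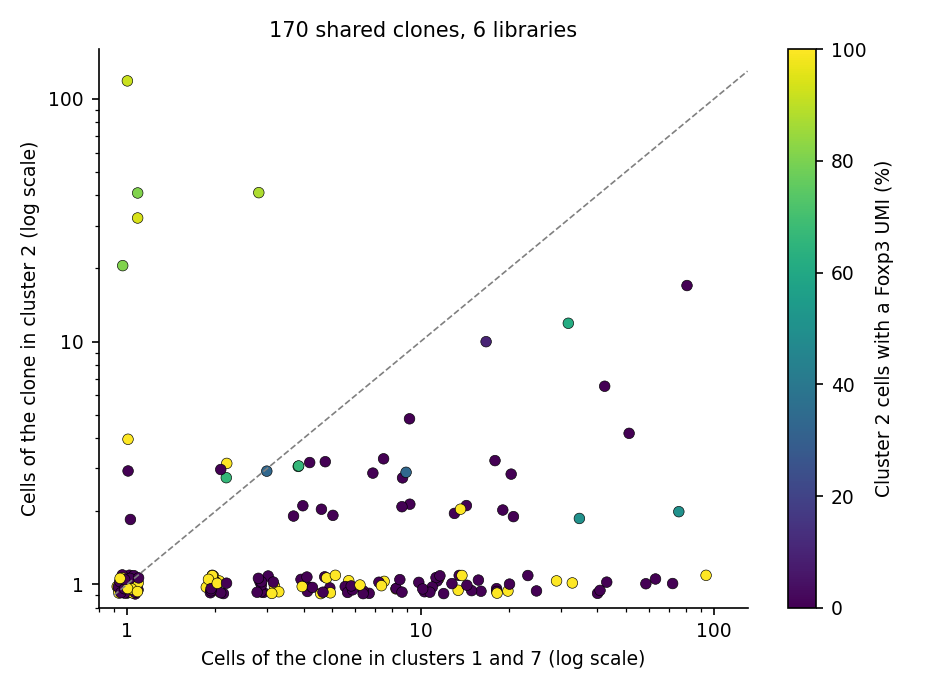
Each point is 1 of the 170 shared clones, with its mates in clusters 1 and 7 on the horizontal log axis and its cells in cluster 2 on the vertical log axis, slightly jittered, and coloured by the percent of its cluster 2 cells with a Foxp3 UMI. The dashed line marks equal numbers: 11 clones lie above it, and 129 of the other 159 have a single cell in cluster 2.

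At the edge of the rule, 44 clones had exactly 1 mate, and 202 of their 255 cluster 2 cells (79.2%) carried Foxp3. The 126 clones with 2 or more mates also held 255 cluster 2 cells, of which 88 (34.5%) carried it. Just outside the rule lie the unshared clones, with 85.0%. Where 1 cell in cluster 2 met 1 mate, 12 of 37 cells (32.4%) were positive. By size in cluster 2, 129 of 832 clones with 1 cell (15.5%), 14 of 180 with 2 cells (7.78%), 18 of 129 with 3 to 5 (14%) and 9 of 75 with 6 or more (12%) were shared, with no steady rise.

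Gene expression was compared between shared and unshared cluster 2 cells by summing counts per library and testing with edgeR's quasi-likelihood test, with the library as a block and Benjamini-Hochberg adjustment over all genes. Of 9459 genes tested, 233 were higher (2.46%) and 130 lower (1.37%) in shared cells at an adjusted p under 0.05, 3.84% in all. Those that rose included effector molecules of conventional and cytotoxic T cells, and those that fell included genes of interferon response and a group of low-level genes found mainly in the unshared cells. Levels below are TMM-normalised CPM (counts scaled to a common library total), given for isotype 1 to 3 and then anti-ACBP 1 to 3. The gene lists were drawn up with earlier results of these data known, so counts within them are descriptive.

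Of 27 tested genes of regulatory T cell identity, 1 rose, 2 fell and 24 did not pass, with a median log2 fold change of -0.42 against -0.01 over all genes. Foxp3 itself stood at 335, 246, 414, 14.4, 260 and 230 CPM in shared cells against 535, 654, 542, 688, 668 and 796 CPM in unshared cells. The shared level was lower in each of the 6 libraries and the ranges did not overlap, but the difference varied so much between libraries that the log2 fold change of -1.43 ± 0.54 (SE) had an adjusted p of 0.290. Helios (Ikzf2) read 560, 211, 664, 43.1, 214 and 254 CPM in shared cells against 528 to 737 CPM in unshared cells. It was lower in 6 of 6 libraries without passing the test (log2 fold change -1.19, adjusted p 0.303). The same direction in all 6 libraries, as for Foxp3 and Ikzf2, was seen for 1058 of all 9459 genes tested (11.2%).

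The receptors by which regulatory T cells are recognised differed in size of change. Tnfrsf18 (GITR, a costimulatory receptor) averaged 907 ± 205 CPM in shared and 1394 ± 174 CPM in unshared cells (SD, n = 6) and fell in edgeR's test (log2 fold change -0.62 ± 0.15, adjusted p 0.0493), lower in 5 of 6 libraries. Without isotype 2, anti-ACBP 1 or anti-ACBP 2 the Tnfrsf18 call was lost. Il2ra (CD25, the high-affinity chain of the interleukin-2 receptor) had a log2 fold change of -0.62 with an adjusted p of 0.131. Ctla4, an inhibitory receptor, read 1595 ± 429 against 1770 ± 342 CPM, and Ccr8, a chemokine receptor of tumour regulatory T cells, read 321 ± 102 against 328 ± 58.9 CPM. Neither Ctla4 (log2 fold change -0.17, adjusted p 0.383) nor Ccr8 (-0.06, adjusted p 0.915) passed. Tgfb1, the cytokine transforming growth factor beta 1, was the 1 identity gene that rose, by 0.62 ± 0.11 on the log2 scale to 781 ± 217 CPM (adjusted p 0.00204).

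Effector genes of conventional CD4 cells had a median log2 fold change of 2.02. Of its 19 tested genes 8 rose, none fell and 11 did not pass. Cd40lg (CD40 ligand, which CD4 cells use to license antigen-presenting and B cells) read 19.9, 138, 28.8, 190, 146 and 125 CPM in shared cells and between 8.17 and 19.1 CPM in unshared cells. Every shared value was above the highest unshared one, the 2 lowest shared values were those of isotype 1 and 3, and the log2 fold change was 2.68 ± 0.35 (adjusted p 0.00543). Ifng (interferon gamma) read 56.7, 331, 70.1, 351, 253 and 1036 CPM against 2.93 to 31.1 CPM, a log2 fold change of 4.61 ± 0.43 (adjusted p 0.00447).

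Among the 8 that rose were Tnfsf8 and Tnfsf11, ligands of the tumour necrosis factor family. Tnfsf8 (CD30 ligand) read 45.3, 220, 16.2, 449, 477 and 101 CPM in shared cells against 3.11 to 24.8 CPM (log2 fold change 4.42, adjusted p 0.0138). Tnfsf11 (RANKL) read 52.5, 223, 80.9, 722, 599 and 370 CPM against 11 to 46.5 CPM (log2 fold change 3.63, adjusted p 0.0206). Both calls were lost without isotype 2, without anti-ACBP 1 or without anti-ACBP 3. Il2 and Il3 also passed, but on few cells: Il2 was found in 11 of 510 shared cells, with 483 of its 690 UMIs in 1 cell, and Il3 in 3 cells.

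Among 20 tested cytotoxic effector genes 9 rose and none fell, with a median log2 fold change of 1.45. Klrd1 (CD94, a partner of NKG2 receptors) read 64.2, 290, 73.7, 388, 239 and 149 CPM in shared cells against 3.96 to 15.0 CPM in unshared cells. The groups were far apart in every library, and the log2 fold change was 4.24 ± 0.18 (adjusted p 3.48e-11). Its partner Klrc1 (NKG2A) and the receptor Klrk1 (NKG2D) rose by 1.73 and 3.41 on the log2 scale. Fasl (Fas ligand) rose from 33.4 ± 17 to 120 ± 74.2 CPM (log2 fold change 1.76, adjusted p 1.74e-06), and Nkg7, a granule protein, by 0.74 from 1110 ± 378 to 1805 ± 439 CPM.

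Markers of CD8 T cells overlap with this list. Of the 11 CD8 markers 5 rose (Gzmk, Klrk1, Klrd1, Nkg7 and Runx3), the first 4 of which are the same calls as in the cytotoxic list, none fell, and their summed level was 1793 to 4074 CPM in shared cells, 1093 to 2289 CPM in unshared cells and 11205 to 14068 CPM in the CD8 clusters, before TMM scaling. Cd8a read 4.57, 32.3, 23.4, 97.8, 314 and 288 CPM in shared cells against 0.954 to 19.8 CPM (log2 fold change 3.49, adjusted p 0.0563). Cd4 rose at the same time, from 235 ± 32.4 to 474 ± 183 CPM (log2 fold change 0.94 ± 0.13, adjusted p 0.000338). Cells with more Cd8a plus Cd8b1 than Cd4 UMIs made up 9.69 ± 7.12% of shared and 3.77 ± 1.97% of unshared cells and were more frequent in 5 of 6 libraries (exact two-sided sign-flip test, p 0.0938). The part of CD8 RNA or of doublets in these differences was not tested. With all clones that had a CD8 cell left out on both sides, an alternative chosen after seeing the data, 108 genes were called, 82 higher and 26 lower. With only cluster 2 cells that had more Cd4 than Cd8 UMIs the count was 312, 207 higher and 105 lower. Summed myeloid markers read 225 to 345 CPM in shared and 241 to 273 CPM in unshared cells, with 10 of 15 at 0 in shared cells, Lyz2 and Csf1r among them. Dendritic cell markers read 101 to 981 against 610 to 817 CPM, with 4 of 11 at 0, Flt3 and Clec9a among them. Tumour and stroma markers read 4489 to 6075 against 5229 to 6479 CPM, with 11 of 15 at 0 in shared cells, Col1a1 and Col3a1 among them. The whole sum in shared cells came from Thy1, S100a4, Vim and Pecam1, and Thy1 is also a surface glycoprotein of T cells. The part of myeloid, dendritic, tumour or stroma cells in the differences was not tested.

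**Figure D3:**
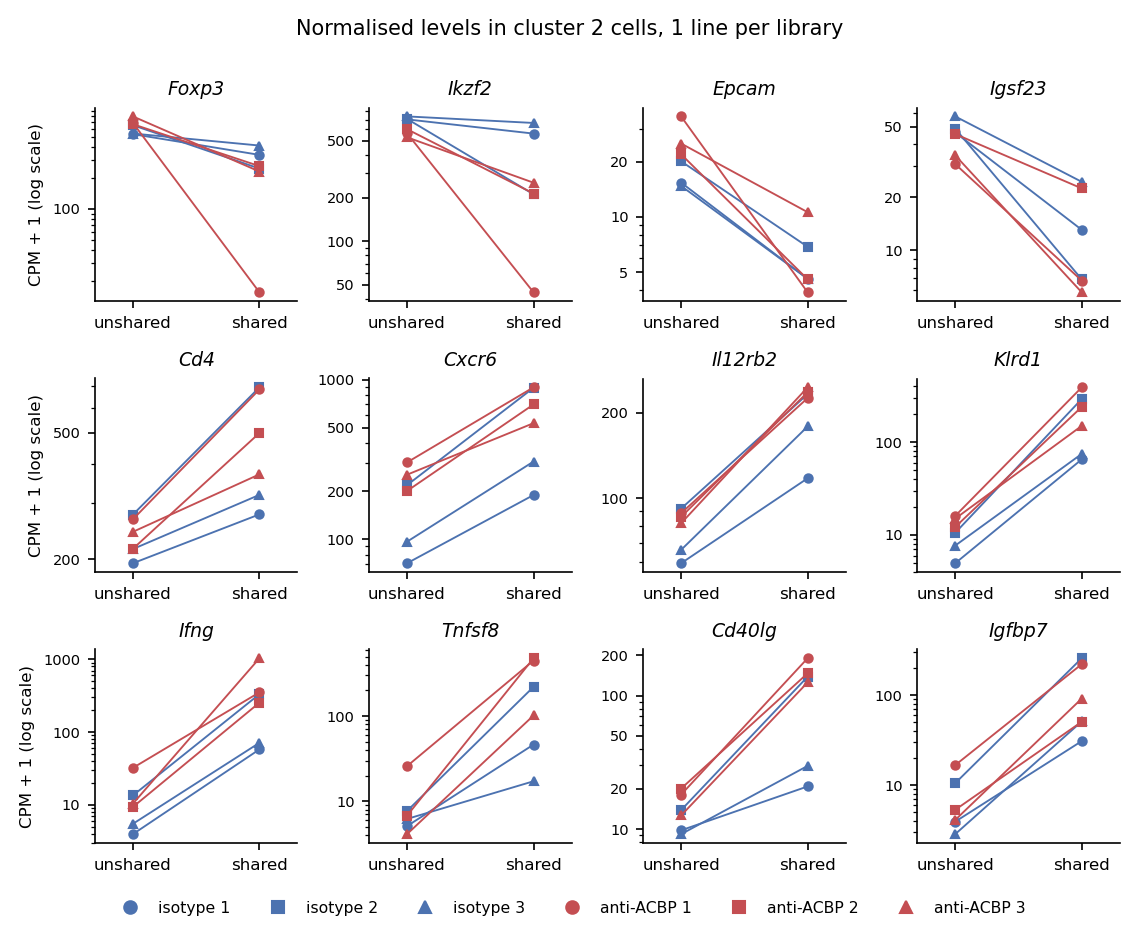
TMM-normalised CPM + 1 (log axis) of 12 genes in unshared and shared cluster 2 cells, with 1 line per library. Epcam and Igsf23 fell and Cd4, Cxcr6, Il12rb2, Klrd1, Ifng, Tnfsf8, Cd40lg and Igfbp7 rose in all 6 libraries, whereas Foxp3 and Ikzf2 were lower in all 6 but did not pass the test and dropped most in anti-ACBP 1.

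Genes of T helper polarisation were split. Il12rb2 (the inducible chain of the interleukin-12 receptor, used by T helper 1 cells) read 117, 232, 178, 224, 235 and 245 CPM in shared cells against 58.2 to 91.1 CPM and rose by 1.35 ± 0.11 on the log2 scale (adjusted p 1.7e-07). Tbx21 (T-bet) read 125 ± 32.7 against 95.9 ± 32.7 CPM, with an adjusted p of 0.0588. Of 15 T helper 1 genes 4 rose (Ifng, Il12rb2, Nkg7 and Gzmk). Among the T follicular helper genes Bcl6, their defining transcription factor, rose by 1.92 on the log2 scale from 4.29 ± 2.15 to 19.2 ± 7.32 CPM (adjusted p 0.00766). Gata3 of T helper 2 cells read 97.0 ± 53.9 against 91.6 ± 18.6 CPM and did not pass, and Stat3 rose by 0.87 (adjusted p 0.000463).

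Of 21 tested homing and chemokine receptor genes 4 rose (Cxcr6, Cx3cr1, Itga4 and Itgb1), 2 fell (Ccr4 and S1pr1) and 15 did not pass, with a median log2 fold change of -0.19. Cxcr6, a chemokine receptor of tissue-resident T cells, read 188, 888, 306, 894, 698 and 533 CPM in shared cells against 69.6, 217, 95.4, 302, 199 and 252 CPM in unshared cells. The difference of 1.61 ± 0.11 on the log2 scale (adjusted p 1.12e-08) was present in each library, although the level differed between libraries on both sides. Cx3cr1 and Itgb1, a chemokine receptor and the beta 1 integrin chain, rose by 1.68 and 1.04. S1pr1, by which T cells leave tissue towards lymph and blood, fell by 0.97 on the log2 scale (adjusted p 0.0228).

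Among receptors that tune activation, Cd226 (DNAM-1, costimulatory) and Cd96 (which binds a ligand in common with it) rose by 2.39 and 2.25 on the log2 scale. Most others did not pass. Of 12 costimulatory receptor genes 1 rose, 1 fell (Tnfrsf18) and 10 did not pass, with a median log2 fold change of -0.42. Of 13 tested inhibitory checkpoint receptor genes 2 rose (Cd160 and Cd96) and 11 did not pass, with a median of 0.04. Nr4a2 and Fosl2, response genes of T cell receptor signalling, rose by 1.16 and 0.66, and the inhibitor of NF-kB Nfkbia fell by 0.34. Of 28 genes of that response 3 rose and 1 fell. Bcl2, a survival factor, rose by 2.24, from 4.23 ± 1.86 to 25.9 ± 22.6 CPM.

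Some interferon response genes fell. Of 30 type II interferon response genes 9 fell, none rose and 21 did not pass, with a median log2 fold change of -0.43. Of 37 type I genes 4 fell, 1 rose and 32 did not pass, with a median of -0.35. Tap1, a peptide transporter of antigen presentation, fell by 0.51 and Ly6e by 0.44. Socs1, a feedback inhibitor of cytokine signalling, fell by 0.56, while Ifng itself was higher in these cells.

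Few glycolysis genes and no cell cycle gene passed. Pgk1, Aldoa, Eno1 and Hilpda rose by 0.44, 0.29, 0.39 and 0.44 on the log2 scale, 4 of 27 genes of the list, and each of the 4 was lost when certain single libraries were left out, Pgk1 without anti-ACBP 2 or anti-ACBP 3. Of the 44 cell cycle genes 41 had a fold change below 0, with a median of -0.38, and Mki67 read 198 ± 156 against 228 ± 98.9 CPM. Cells called in S or G2M phase made up 24.9 ± 10.2% of shared and 25.3 ± 7.54% of unshared cells, with 3 libraries in each direction (exact two-sided sign-flip test, p 0.906). None of 22 genes of acyl-CoA binding and fatty acid use passed, and Dbi, which encodes ACBP, read 214 ± 49.6 against 223 ± 47.1 CPM.

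Several genes marked the shared cells at low level. Igfbp7 (an insulin-like growth factor binding protein) read 30.0, 258, 50.4, 221, 49.9 and 91.2 CPM against 1.86 to 15.7 CPM (log2 fold change 4.05, adjusted p 1.56e-10). Nrgn (neurogranin, a calmodulin-binding protein) and Gpm6b (a membrane glycoprotein) rose by 4.66 and 4.21. Dthd1 was found in 15 shared cells, with 35 UMIs, and in 0 of 2483 unshared cells, which allows a share of cells with a UMI, not of cells expressing the gene, of up to 0.121%. Dlg2 was found in 23 shared and 5 unshared cells and Dclk1 in 22 and 5.

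The genes that fell furthest were Epcam (an epithelial adhesion molecule), Igsf23, Cep112, Pde2a and Cd79b. Epcam read 3.59, 5.86, 3.60, 2.88, 3.56 and 9.60 CPM in shared cells and 13.7 to 34.3 CPM in unshared cells (log2 fold change -2.09 ± 0.31, adjusted p 0.000319). It was found in 15 of 510 shared and 242 of 2483 unshared cells. Igsf23 read 12.1, 5.86, 23.4, 5.75, 21.4 and 4.80 CPM against 29.7 to 56.0 CPM and fell by 1.80 (adjusted p 4.52e-05). Lgmn (legumain, a lysosomal protease) and Cd79b (a B cell receptor subunit) fell by 1.62 and 1.69. Cd79b is also on the B cell marker list, whose summed level was 5.31 to 92.3 CPM in shared and 184 to 245 CPM in unshared cells, with Ms4a1 and Pax5 at 0 in both.

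Of 66 named genes that passed, 39 still passed without each library in turn, among them Klrd1, Ifng, Cd40lg, Cxcr6, Il12rb2, Cd4, Epcam and Igsf23, and 27 were lost without at least 1. The number of genes called depended on which shared clones entered. It was 1389 (709 higher, 680 lower) with only the clones holding as many or more cells in clusters 1 and 7, and 52 (14 higher, 38 lower, from 2 libraries) with only the clones lying mostly in cluster 2. Limiting both sides to cells with a Foxp3 UMI left 4 libraries and 25 genes, and Bcl6, Bach2, Hilpda and Atf3 then had negative fold changes.

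The levels by clone kind show where the effector genes lay. Klrd1 read 396, 280, 263, 394, 232 and 150 CPM (before TMM scaling) in clones lying mostly in clusters 1 and 7, and 2.67, 2.48 and 0 CPM in isotype 1, isotype 3 and anti-ACBP 1 clones lying mostly in cluster 2. It was detected in 122 of 243 cells of the first kind, in 6 of 267 of the second and in 82 of 2483 unshared cells. Ifng was detected in 94 of 243, 17 of 267 and 94 of 2483 cells, and Cd40lg in 99 of 243, 12 of 267 and 121 of 2483. For all 3 genes the second kind lay nearer to the unshared cells than to the first kind. With those clones alone the fitted log2 fold changes of Klrd1, Cd40lg, Tnfsf8 and Tnfsf11 were -0.75, -1.11, -2.65 and -0.76, from isotype 1 and isotype 3 only. Not all effector genes turned negative in that fit. Ifng, Nkg7, Il12rb2, Fasl and Cxcr6 stayed positive, at 1.60, 0.89, 0.73, 0.68 and 0.62. The 5 cells of this kind in anti-ACBP 1, too few for the fit, read 445 CPM of Cd40lg, 831 CPM of Tnfsf8 and 475 CPM of Tnfsf11, above the unshared cells of every library.

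The cells of clones lying mostly in clusters 1 and 7 still differed from their mates. Il2ra averaged 680 ± 322 CPM in them against 1381 ± 230 CPM in unshared cells and 161 ± 50.2 CPM in the mates, and each library followed that order. Ctla4 averaged 1353 ± 418, 1789 ± 353 and 668 ± 214 CPM, and Ikzf2 205 ± 98.3, 646 ± 84.9 and 49.8 ± 23.6 CPM, in the same order of groups. All 3 are genes on which cluster 2 could have been formed, so their lying above the mates is not a result.

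Areg, the growth factor amphiregulin, which tissue regulatory T cells can secrete, did not follow that order. It too is a gene on which cluster 2 could have been formed, at 360 to 652 CPM in unshared cluster 2 cells and 32.4 to 86.9 CPM in the cells of clusters 1 and 7 without a mate, so its lying above the mates is not a result. It read 3144, 3292, 2067, 5670, 1476 and 2997 CPM in cells of the clones lying mostly in clusters 1 and 7, above each unshared value, and 34.9 to 238 CPM in the mates. It was detected in 189 of those 243 cells, in 68 of 267 cells of the other shared clones and in 1013 of 2483 unshared cells. Over all shared cells the log2 fold change against unshared cells was 1.87 ± 0.48, higher in 6 of 6 libraries, with an adjusted p of 0.130. The low values came from isotype 1 and isotype 3, at 667 and 820 CPM, the libraries with most of the clones lying mostly in cluster 2.

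**Figure D4:**
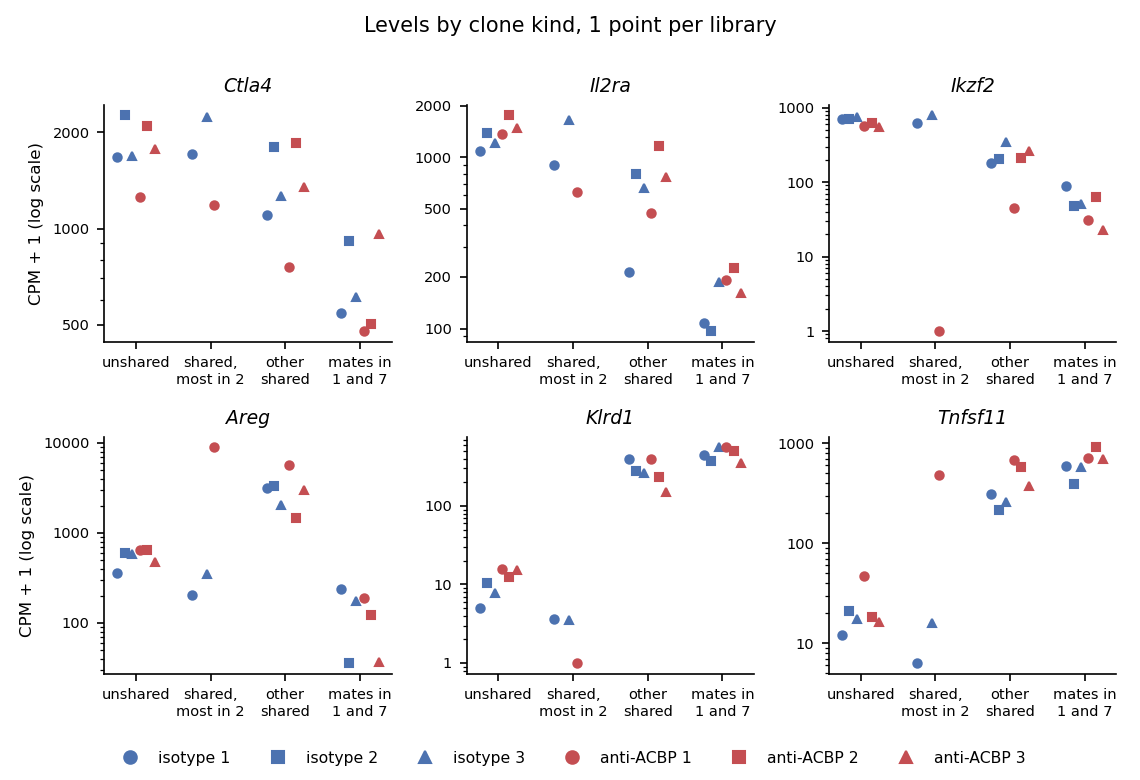
CPM + 1 (log axis, before TMM scaling) of 6 genes, 1 point per library, in unshared cluster 2 cells, shared cells of clones with most cells in cluster 2 (3 libraries, 1 of them with 5 cells), the other shared cells, and their mates in clusters 1 and 7. Areg reached 1476 to 5670 CPM in the other shared cells, above the unshared cells and the mates, and Klrd1 and Tnfsf11 there lay near the mates.

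The mates were compared with the remaining receptor-typed cells of clusters 1 and 7. In the 1669 mates 389 of 9502 genes were higher (4.09%) and 528 lower (5.56%) than in the 4726 other cells, 9.65% in all. Of 18 naive and central memory genes 15 were lower and none higher, and the transcription factors Klf2 and Tcf7 were lower by 1.73 and 1.53 on the log2 scale. Of 36 type I interferon genes 19 were lower, and of 27 glycolysis genes 14 were higher. Foxp3 did not pass in the mates (4.87 ± 2.93 against 3.95 ± 1.79 CPM, adjusted p 0.790).

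Cd8a and Cd8b1 were lower in the mates by 1.5 and 1.59 on the log2 scale, and 5.57% of mates against 15.4% of other cells had more Cd8 than Cd4 UMIs. Among cells with more Cd4 than Cd8 UMIs 389 genes were called. Igfbp7 and Dclk1, which rose in the shared cluster 2 cells, were also higher in the mates, by 0.95 and 1.03. With both sides limited to clones of at least 2 conventional cells the count was 160.

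The rule gives every shared clone at least 2 cells and a mate outside cluster 2, so clone size and the finding of further mates are given as description, with no test. Counted over all clusters, a shared clone had a median of 10 cells and an unshared clone of 1, and 65.3% of unshared clones were single cells, which can have no mate. A mate in CD8 clusters 0, 3 or 6 was found for 61.6, 59.7, 18.9, 69.8, 44.4 and 34.8% of shared cells against 4.40, 0, 0.218, 40.0, 0.651 and 0.490% of unshared cells. The 40.0% in anti-ACBP 1 came mostly from 1 TRBV19 clone with 165 cells in cluster 2 and 3 CD8 cells. A TRA equal to that of at least 1 CD8 mate was carried by 236 of 239 shared cells (98.7%).

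Mates in cluster 4 were found for 40.3 ± 19.5% of shared and 1.71 ± 2.16% of unshared cells. The same V gene and CDR3 nucleotides were seen in another library for 16 of 170 shared clones, on average 9.10 ± 3.32% per library against 1.31 ± 0.729% of unshared clones. This share was higher in 6 of 6 libraries (exact two-sided sign-flip test, p 0.03125, the smallest 6 libraries allow, 0.0547 adjusted over the 7 measures compared). Among clones with at least 2 cluster 2 cells it was higher in 4 libraries and lower in 2, with means of 14.7 ± 14.1% and 2.14 ± 1.42% (p 0.125 in the same exact test). Mean CDR3 length was 41.8 ± 1.20 against 41.1 ± 0.432 bases (p 0.313 in the same exact test). TRBV3 was used by 41 of 170 shared clones (24.1%) and 143 of 1046 unshared clones (13.7%) and was more frequent in each library, an observation picked after all V genes were seen and not tested. Cell barcodes present in more than 1 library made up 3.51% of all cells and 8 of the shared cells, and none of them carried the same TRB in both libraries.

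Whether the antibody changed the extent of sharing was asked with the share of typed cluster 2 cells. Shared cells made up 250 of 909, 67 of 459 and 90 of 549 cells in isotype 1 to 3, which is 27.5, 14.6 and 16.4%. In anti-ACBP 1 to 3 they made up 53 of 515, 27 of 334 and 23 of 227, which is 10.3, 8.08 and 10.1%. The 3 isotype values lay above the 3 anti-ACBP values, with means of 19.5 ± 6.99% and 9.50 ± 1.23% (SD, n = 3) and an exact two-sided permutation p of 0.1, the smallest that 3 against 3 allow. Counted by clones, the values were 10.2, 22.7 and 9.09% against 20.6, 13.1 and 14.5%, with no separation (p 0.6). With the conventional cells thinned to the number in the smallest library, the shares of cells were 15.4, 12.9 and 13.5% against 8.71, 8.08 and 8.88% (p 0.1).

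The separation of the groups was not kept in the following alternatives, which were chosen after seeing the data. The reason was not tested. When only clones with as many or more cells in clusters 1 and 7 counted as shared, isotype 1 to 3 held 6.05, 14.6 and 4.19% and anti-ACBP 1 to 3 held 9.32, 8.08 and 10.1% (p 0.9). Without clones holding a CD8 cell the shares were 13.2, 6.44 and 13.7% against 5.46, 4.69 and 6.88% (exact permutation p 0.2). Cells with a FALSE value in a deposited column of TRUE and FALSE values made up 4 of the 16 mates of the clones lying mostly in cluster 2 and 43 of 1653 of the others. Among the shared cells themselves 90 of 510 (17.6%) had a FALSE value, against 11.4% of unshared cells. In isotype 2 the order was the other way, at 20.9 against 27.8%. What that column records is not stated in the labels. Without all cells of FALSE value isotype 3 fell to 4.04% and the permutation p was 0.5.

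**Figure D5:**
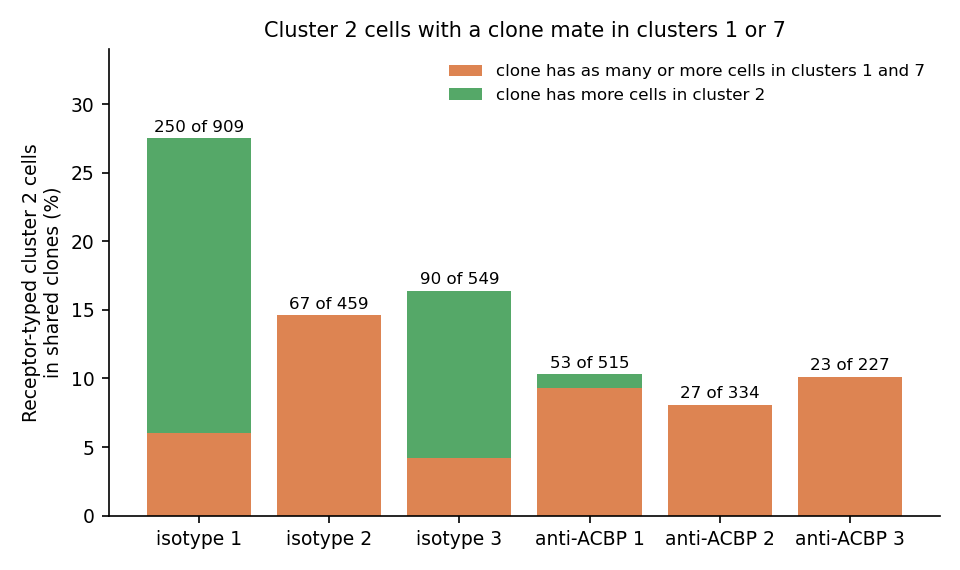
Percent of receptor-typed cluster 2 cells in shared clones (vertical axis) for each library, with bars split by whether the clone had more cells in cluster 2 (green) or as many or more in clusters 1 and 7 (orange), and the cell numbers above. The isotype bars reach 14.6 to 27.5% and the anti-ACBP bars 8.08 to 10.3%, while the orange parts of the groups overlap.

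Within the shared cells, 16 of 4867 genes were higher (0.329%) and 6 lower (0.123%) in anti-ACBP than in isotype libraries, 0.452% in all. Kdm6b, a histone demethylase, read 75.8, 75.6 and 48.5 CPM in isotype and 233, 216 and 230 CPM in anti-ACBP libraries (log2 fold change 1.75, adjusted p 0.0063). Fosb, an early response transcription factor, and Il18rap, a chain of the interleukin-18 receptor, rose by 2.26 and 1.76. Ddit4, a stress-induced inhibitor of growth signalling, read 1356, 1316 and 1676 CPM against 299, 551 and 460 CPM and fell by 1.74 (adjusted p 0.0063). The groups did not overlap for these genes, which was also so for 785 of all 4867 genes tested (16.1%). The shared cells of the 2 groups also differed in clone kind. With only the clones lying mostly in clusters 1 and 7 no gene of 4345 passed with edgeR (252 at an unadjusted p under 0.05). Clone kind and antibody cannot be told apart in this comparison.

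In the unshared cells 167 of 9454 genes were higher (1.77%) and 159 lower (1.68%) under anti-ACBP, 3.45% in all. Fosb and Txnip rose there too, by 1.92 and 1.46 on the log2 scale, Ddit4 was also called lower there, and of 44 cell cycle genes 24 fell. Dbi fell by 0.51 from 249, 263 and 289 to 172, 216 and 174 CPM in unshared cells, and read 286, 172 and 267 against 164, 253 and 199 CPM in shared cells, where it did not pass (adjusted p 0.748).

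The difference between shared and unshared cells was itself compared between the antibodies in 1 model. The interaction was called for 5 genes higher (0.0529%) and 18 lower (0.190%) of 9459, 0.243% in all. Sdcbp2, a scaffold protein, had a shared-minus-unshared difference of 0.02, -0.25 and 0.56 on the log2(CPM + 1) scale in isotype and -1.61, -1.45 and -1.96 in anti-ACBP libraries (interaction -1.78 ± 0.24, adjusted p 0.00185). Klf2 (a factor of quiescent, recirculating T cells) had differences of -1.03, -1.83 and -0.34 against -2.34, -3.21 and -3.10, and Myc (a driver of growth) -0.37, -1.05 and -0.07 against -2.22, -3.53 and -3.01. The anti-ACBP shared values rest on 12, 7 and 6 UMIs for Klf2 and on 4, 1 and 1 for Myc. Mgat5, a glycosylation enzyme, had 0.02, 0.17 and -0.81 against 2.22, 2.20 and 1.79. No gene was called without isotype 1 or without isotype 3, and 186 were called without isotype 2. With only the clones lying mostly in clusters 1 and 7, 5 genes were called, all lower. Clones lying mostly in cluster 2 held 78.0, 0 and 74.4% of the shared cells of isotype 1 to 3. They held 9.43, 0 and 0% of those of anti-ACBP 1 to 3. Clone kind and antibody thus cannot be told apart in the interaction over all shared cells either.

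Depth differed between the groups of cells compared. The libraries held 27791735 to 65519423 UMIs, the shared sums 206187 (anti-ACBP 3) to 3099956 (isotype 1) and the unshared sums 1247671 to 6771046. Counts were simulated from these sums with the same spread (the common dispersion) for every gene and no difference between libraries but depth. In that setting a 2-fold change (1 on the log2 scale) was recovered for 69% of changed genes between shared and unshared cells. The share was 38% between antibodies within shared cells and 21% in the interaction. Genes that vary more between libraries, as Foxp3 did, were not simulated, so these shares do not hold for them.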

How the data were processed

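Sorted tumour T cells were analysed from 6 expression libraries, 3 per antibody, each with a paired receptor library. Gene counts are unnormalised UMI counts per gene and cell as deposited, made with Cell Ranger 7.0.0 on mm10 per the submitters' processing notes, which also name Seurat. Cluster numbers, cell cycle phase and a column of TRUE and FALSE values whose meaning no label states come from the deposited cell table, of which 8 further columns were not used. Receptor contigs were those in the deposited filtered contig tables. How free RNA was handled is not stated, and no doublet caller was run here.

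Counts were summed per library over shared and over unshared cells, leaving out T cell receptor and immunoglobulin segments, and tested with edgeR 4.0.16 (TMM, filterByExpr, robust quasi-likelihood F test, Benjamini-Hochberg threshold 0.05) with the library as a block. DESeq2 1.42.0, RLE scaling, no low-count filter, other clone definitions and leaving out each library were alternatives, and an arm needed at least 10 cells. The interaction used the same sums, and the antibody comparisons 3 sums against 3. Shares used exact permutation or sign-flip tests in Python 3.11.15 with scipy 1.17.1. The fits were tested on simulated counts. Per-library CPM differences used a pseudocount of 1.

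The members, gene lists and named genes were chosen with earlier results of these data known. Named genes were a chosen list of regulatory and T helper genes, up to 10 higher and 10 lower genes by fold change among those past the threshold, in 1 direction in all libraries and at 10 CPM or more, and up to 4 genes past the threshold from each of 29 lists. Clone kinds, and the alternatives without clones holding a CD8 cell or, for the share, without cells of FALSE value, were added after seeing the data. Some items are not reported here.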

Additional observations from a re-analysis of the deposited data

Results flagged for a closer look

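Shared-minus-unshared differences were read in all 6 libraries for 90 items. Of these, 7 were paired measures in their own units, and the rest were genes on the log2(CPM + 1) scale. For 6 of the 90, all genes, 1 library stood apart from the others by Dixon's criterion. Chance meets it in about 1 of 20 sets of values. Foxp3 differed by -5.49 in anti-ACBP 1 and by -1.79 to -0.39 in the others, where the shared cells of anti-ACBP 1 stood at 14.4 CPM. Mki67, a proliferation marker, differed by -3.20 in isotype 2 and by -0.85 to 0.31 elsewhere. Cd8a differed by 0.084 in isotype 1 and by 2.92 to 4.51 elsewhere. Tmtc2 differed by -3.98 in anti-ACBP 3, where no shared cell held a UMI, and by -1.56 to -0.77 elsewhere. Nfkbia differed by 0.031 in isotype 2 against -0.53 to -0.33, and the glycolytic enzyme Eno1 by 1.01 in anti-ACBP 2 against 0.08 to 0.38.

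The shared-minus-unshared difference itself differed between the antibody groups for 23 genes in edgeR's interaction test, and the named ones are given with their interaction log2 fold change. It was higher under anti-ACBP for Nrn1 (5.11), Pdlim1 (2.44), Mgat5 (2.39), Prelid2 (1.54) and Coq10b (1.41). It was lower for Ncmap (-3.90), Itih5 (-3.12), Myc (-2.48), Cystm1 (-1.99), Klf2 (-1.91), Sdcbp2 (-1.78), Podnl1 (-1.66), Pcyt1a (-1.47), Igflr1 (-1.34) and Arl5a (-1.27). Some of the largest rest on few UMIs. Nrn1 had 2, 2 and 1 UMIs in the shared cells of isotype 1 to 3 and 24, 3 and 6 in those of anti-ACBP 1 to 3. Pdlim1 had 30, 3 and 3 against 27, 9 and 4. In the anti-ACBP shared cells Ncmap had 0, 2 and 0 UMIs and Itih5 1, 0 and 2. Without isotype 1 or without isotype 3 edgeR called no gene (567 and 492 at an unadjusted p under 0.05).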

How the results depend on the processing

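Shared against unshared cells gave 363 genes, and 162 to 493 without 1 library, the lowest without anti-ACBP 2; without anti-ACBP 1, anti-ACBP 3 or isotype 2 the count was 230, 210 or 209. It was 550 with no low-count filter, 134 without the library block, 62 with clones of at least 2 cluster 2 cells, 636 without the largest shared clone of each library, 813 with mates in cluster 7 only, 1015 with at least 2 mates, 25 among cells with a Foxp3 UMI and 615 without cells of FALSE value. Alternatives chosen after seeing the data gave 52 with clones lying mostly in cluster 2, 1389 with the others and 108 without clones holding a CD8 cell. The interaction gave 23 genes, 141 unfiltered, 5 with clones lying mostly in clusters 1 and 7, 16 with DESeq2, and 0 to 186 without 1 library: 4, 14 and 3 without anti-ACBP 1, 2 and 3, 186 without isotype 2, and 0 by edgeR without isotype 1 or isotype 3 (567 and 492 at an unadjusted p under 0.05). The mates gave 917 genes, 425 with DESeq2, 389 among cells with more Cd4 than Cd8 UMIs, 19 in cluster 7 only, 160 with at least 2 conventional cells, 354 without clones holding a CD8 cell, and 557 (without isotype 1) to 984 without 1 library. The cause of these shifts was not tested.

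The antibody gave 22 genes in shared cells, 257 unfiltered, 44 with DESeq2, 0 by edgeR with clones lying mostly in clusters 1 and 7 (252 unadjusted), and 0 (without isotype 3, 333 unadjusted) to 240 (without isotype 2) without 1 library; without anti-ACBP 1, 2 or 3 or isotype 1 it was 7, 1, 9 or 4. In unshared cells it gave 326, 822 unfiltered and 75 (without isotype 3) to 628 (without isotype 2), with 99 and 185 without anti-ACBP 1 and 3. With the replicate number as a block the counts were 6 in shared and 292 in unshared cells. The labels give nothing that pairs equal numbers, and the correlations of same-numbered libraries' deviations from their group means were -0.119, -0.0589 and 0.0691 in shared and 0.0677, -0.158 and -0.0264 in unshared cells, so the samples share only a number, and not every library correlated best with its own number.

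The share of shared cells differed by -10.0 percentage points, by -12.4 to -5.99 without 1 library, -5.41 with conventional cells thinned, -15.5 with clones of at least 2 cluster 2 cells, -5.70 without cells of FALSE value and -5.46 without clones holding a CD8 cell, but by 2.08 when clones were counted and by 0.90 with clones lying mostly in clusters 1 and 7. The groups overlapped when clones were counted and with clones lying mostly in clusters 1 and 7. They also overlapped without cells of FALSE value and without clones holding a CD8 cell. Leaving out 1 library limits the sign-flip p to 0.0625, and the rule largely sets the direction for mates. The differences then ranged from -1.77 to 2.46 points for S or G2M phase (2.46 without isotype 2), 36.7 to 45.0 for CD8 mates, 35.0 to 44.6 for cluster 4 mates, 6.78 to 8.83 for clones in another library and 1509 to 2003 UMIs for depth. Clones of at least 2 cells gave 43.4, 12.6 and 1560 for the last 3, and clones lying mostly in clusters 1 and 7 gave 1439 UMIs.

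Among 148 named gene results and 2549 alternatives, 1898 kept direction and call, 632 lost the call, 4 gained the call and 15 changed direction. Among Foxp3-positive cells those that changed direction were Bcl6 (-0.036), Bach2 (-0.89), Hilpda (-0.10) and Atf3 (-0.19). With clones lying mostly in cluster 2 they were Bcl6 (-0.53), Cd40lg (-1.11), Tnfsf8 (-2.65), Klrd1 (-0.75), Cd226 (-0.40), Nfatc1 (-0.052), Ly6e (0.011), Itgb1 (-0.32), Tnfsf11 (-0.76) and Vim (0.038). Among the mates Ikzf2, not called, gave -0.017 without isotype 1 and up to 0.18 without isotype 3.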

Other observations

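Thy1, a surface glycoprotein of T cells that was also listed as a stroma marker, averaged 1271 ± 341 CPM in shared and 720 ± 66.0 CPM in unshared cells (SD, n = 6). It rose in edgeR's test by 0.77 on the log2 scale with an adjusted p of 0.000208, and was higher in 6 of 6 libraries. Runx3, a transcription factor of cytotoxic T cells, averaged 180 ± 46.1 against 104 ± 15.0 CPM and rose by 0.73, a call lost without anti-ACBP 2 and without clones holding a CD8 cell. Slc17a6, a vesicular glutamate transporter gene, read 4.57, 29.3, 12.6, 31.6, 35.6 and 14.4 CPM in shared cells and between 0 and 3.15 CPM in unshared cells. Every shared value lay above the highest unshared one, on 3 to 14 UMIs per library in the shared cells.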
